A study of Arabidopsis thaliana with 15 samples.

Results

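The 10 genes described here encode the chloroplast and peroxisome enzymes that lead from linolenic acid to jasmonate (LOX2, LOX3, AOS, AOC1, AOC2, AOC3, AOC4 and OPR3) and 2 vegetative storage proteins that jasmonate is known to induce (VSP1 and VSP2). They were chosen by gene identifier from 33326 rows of a table of transcript levels, and all 10 passed the filter on low values. In the double mutant of MYB3R1 and MYB3R4, the transcripts of AOC3, AOC2, AOC1, OPR3, VSP1 and LOX2 were higher than in the wild type, where 24.5% of all genes tested were, with AOC3 at 4.8 times the wild-type level. In a line with a GFP-tagged MYB3R4, 7 of the 10 genes were higher, where 7.6% of all genes tested were. VSP2 and AOC4 were among them, as was AOS, whose call was lost when any of 4 libraries was left out, and AOC1 and AOC2 were not. The difference between that line and the double mutant was not tested. In the single mutant of MYB3R4, 2 members rose and none fell, beside 4.55% and 3.04% of all genes tested, with AOC3 at 2.16 times the wild-type level. In the single mutant of MYB3R1, none rose and 1 fell, beside 3.16% and 3.1%. Leaving out one library gave 1 or 2 calls for MYB3R4 and 0 to 2 for MYB3R1.

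RNA was sequenced from dissected inflorescence meristems of Arabidopsis thaliana in 15 libraries, 3 for each of 5 genotypes, to follow how MYB3R transcription factors act on the shoot apex. The groups were the single mutants labelled myb3r1 and myb3r4, the double mutant labelled myb3r1myb3r4, a line labelled pMYB3R4::GFP-MYB3R4mNES that carries a GFP fusion of MYB3R4 behind the MYB3R4 promoter (the mNES line below), and the wild type Col-0. Plants had 16 h of light and 8 h of dark, and apices were taken just after bolting, with open flowers removed and younger buds not mentioned. Each library pooled 36 meristems. The labels give no alleles, no meaning for mNES, no background for the transgene and no statement on whether replicates came from separate plants, so a p-value here reflects only how far these samples scatter. A label called shift experiment runs from 1st to 3rd with the replicate number and is not explained.

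Jasmonate synthesis starts in the chloroplast, where 13-lipoxygenases (LOX) oxidise linolenic acid, allene oxide synthase (AOS) and allene oxide cyclase (AOC) turn the product into the ring compound OPDA, and the peroxisomal reductase OPR3 and beta-oxidation complete the route. The conjugate with isoleucine is bound by the receptor COI1 together with a JAZ repressor, the JAZ protein is degraded, and MYC transcription factors are released. In Arabidopsis the hormone is known for wound responses and for stamen maturation, and VSP1 and VSP2 are standard markers of the response in leaves and flowers.

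AOC1 (AT3G25760, chr3:9403779-9405338), AOC2 (AT3G25770, chr3:9406669-9408071) and AOC3 (AT3G25780, chr3:9409160-9411090) stand head to tail on the plus strand within 7312 bases in the RefSeq annotation of TAIR10.1, with gaps of 1330 and 1088 bases and no gene between them. VSP2 (AT5G24770, chr5:8500468-8502224) and VSP1 (AT5G24780, chr5:8507590-8509201) are neighbours on the minus strand, 5365 bases apart. The other 5 genes stand alone: LOX2 (AT3G45140, chr3:16525245-16529352, plus), LOX3 (AT1G17420, chr1:5977323-5981521, plus), AOS (AT5G42650, chr5:17097564-17099595, minus), AOC4 (AT1G13280, chr1:4547388-4548894, plus) and OPR3 (AT2G06050, chr2:2359114-2362375, minus). No member overlaps another annotated gene.

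Because the tandem copies gave unequal values across the genotypes, the 250 bases before the annotated start of each tandem copy are shown, 5' to 3' on the strand of the gene, from the RefSeq TAIR10.1 genome. The windows are chr3:9403529-9403778 for AOC1, chr3:9406419-9406668 for AOC2 and chr3:9408910-9409159 for AOC3, all plus strand, and chr5:8509202-8509451 for VSP1 and chr5:8502225-8502474 for VSP2, both minus strand. Capitals mark matches to 3 short motifs searched on both strands.
AOC1 upstream: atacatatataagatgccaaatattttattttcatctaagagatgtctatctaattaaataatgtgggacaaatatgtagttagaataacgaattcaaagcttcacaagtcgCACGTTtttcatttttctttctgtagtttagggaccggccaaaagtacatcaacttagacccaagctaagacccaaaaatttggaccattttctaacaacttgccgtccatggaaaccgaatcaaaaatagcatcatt
AOC2 upstream: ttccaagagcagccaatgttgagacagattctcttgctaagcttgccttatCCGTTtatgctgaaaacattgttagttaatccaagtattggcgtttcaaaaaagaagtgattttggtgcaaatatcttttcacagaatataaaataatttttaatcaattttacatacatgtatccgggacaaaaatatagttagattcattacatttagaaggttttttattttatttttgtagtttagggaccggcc
AOC3 upstream: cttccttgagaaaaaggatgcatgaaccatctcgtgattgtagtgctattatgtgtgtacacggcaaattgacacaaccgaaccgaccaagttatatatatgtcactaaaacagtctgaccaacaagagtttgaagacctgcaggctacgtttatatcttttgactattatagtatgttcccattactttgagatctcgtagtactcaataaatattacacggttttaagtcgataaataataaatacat
VSP1 upstream: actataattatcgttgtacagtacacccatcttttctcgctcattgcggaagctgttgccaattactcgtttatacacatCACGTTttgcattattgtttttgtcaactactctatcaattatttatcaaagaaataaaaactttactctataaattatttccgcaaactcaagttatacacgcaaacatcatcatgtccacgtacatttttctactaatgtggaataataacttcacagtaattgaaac
VSP2 upstream: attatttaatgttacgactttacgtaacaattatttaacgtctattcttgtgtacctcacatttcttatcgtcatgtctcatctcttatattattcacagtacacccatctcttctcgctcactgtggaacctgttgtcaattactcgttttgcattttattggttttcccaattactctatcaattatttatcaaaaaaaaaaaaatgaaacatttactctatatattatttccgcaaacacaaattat
The motifs were CACGTG (the G-box, known to be bound by MYC2 and related factors), AACGTG (a G-box variant) and AACGG (the core of the element that MYB3R proteins are known to bind). CACGTG was found in the window of AOS alone among the 10 members, 6 bases before the start, and in 6.5% of all 27443 windows of this length. AACGTG was found once each upstream of AOC1 and VSP1, as CACGTT on the strand shown, and in 7.5% of all windows. AACGG was found once each upstream of AOC2 and OPR3, as CCGTT, and in 20.6% of all windows. No window of AOC3, VSP2, LOX2, LOX3 or AOC4 held any of these letters. The AOC4 window overlaps a neighbouring gene, AT1G13270. The longest run of bases shared between the AOC1 and AOC2 windows was 19, and between the VSP1 and VSP2 windows 23, while AOC3 shared no more than 8 with AOC1 and 9 with AOC2. These matches describe the windows only.

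The coding sequences of the copies were compared because reads of similar genes can be assigned to the wrong copy. Identity over aligned coding bases was 90.3% between AOC1 and AOC2, 82.4% between AOC2 and AOC3, 80.2% between AOC3 and AOC4 and 90.4% between VSP1 and VSP2. Of the 31-base stretches in the transcripts, 6.2% of AOC1, 3.9% of AOC3, 3.3% of AOC2, 5.6% of VSP1 and 4.9% of VSP2 were also present in another copy, and no stretch of 75 bases was shared. The stretches with the most differences within 2 of the pairs are shown, with capitals at the bases that differ (20 for AOC2 and AOC3, 14 for VSP1 and VSP2). They begin at coding positions 148 of AOC2, 154 of AOC3, 586 of VSP1 and 571 of VSP2, counted from the first base of the start codon.
AOC2 coding: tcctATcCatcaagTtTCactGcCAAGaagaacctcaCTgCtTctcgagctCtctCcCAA
AOC3 coding: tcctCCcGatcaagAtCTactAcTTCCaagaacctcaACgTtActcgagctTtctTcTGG
VSP1 coding: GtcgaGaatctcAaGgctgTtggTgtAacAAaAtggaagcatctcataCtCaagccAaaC
VSP2 coding: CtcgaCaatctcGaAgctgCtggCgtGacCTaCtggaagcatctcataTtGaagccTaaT

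The values are TPM, the length-corrected share of a gene in all transcripts of a library, so levels can be compared between genes. Depth is unknown, since TPM keeps no read totals. The libraries labelled myb3r1 had 17.2 to 18.1 TPM of MYB3R1 itself and those labelled myb3r1myb3r4 had 14 to 15.2, against 13.1 to 13.5 in Col-0. Of MYB3R4, the myb3r4 libraries had 12.7 to 13.4 TPM, myb3r1myb3r4 16.8 to 17.4 and the mNES line 58.9 to 63.5, against 10.4 to 12.8 in Col-0. Neither gene was lower in the lines named for it, so transcript levels do not check the mutant labels, and the genotype names below mean the libraries so labelled. Of the meristem markers, STM (44.2 to 62 TPM) and WUS (6.73 to 16.9 TPM) were present in every library, while CLV3, a stem cell marker, was at 0 to 0.275 TPM. On the log2 scale and by the limma test defined in the next paragraph, WUS fell by 0.62 in the double mutant (adjusted p = 0.00271), and STM rose by 0.29 in myb3r4 (adjusted p = 0.0164). LFY, a regulator of floral identity, rose by 1.19 in the double mutant (adjusted p = 3.66e-05) and fell by 0.65 in the mNES line (adjusted p = 0.00935). CLV1 and BP, the other tested markers of this list, passed in no comparison with Col-0. Photosynthesis genes and anther genes were present too, and in such bulk samples fewer cells of a type and less RNA per cell cannot be told apart. One Col-0 library, replicate 1, stood apart in 11 rapid wound and touch genes, which summed to 72.7 TPM there and to 161 and 163 TPM in the other Col-0 libraries.

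Differences are log2 differences of TPM + 0.5 with the standard error (SE) of the fit, and a gene is said to have risen or fallen where its limma p, adjusted by the Benjamini-Hochberg method over 21737 genes, is under 0.05. The 4 comparisons with Col-0 share its 3 libraries. All 10 members differed among the 5 groups in the F test of limma, as did 55.9% of all genes tested.

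**Figure D1:**
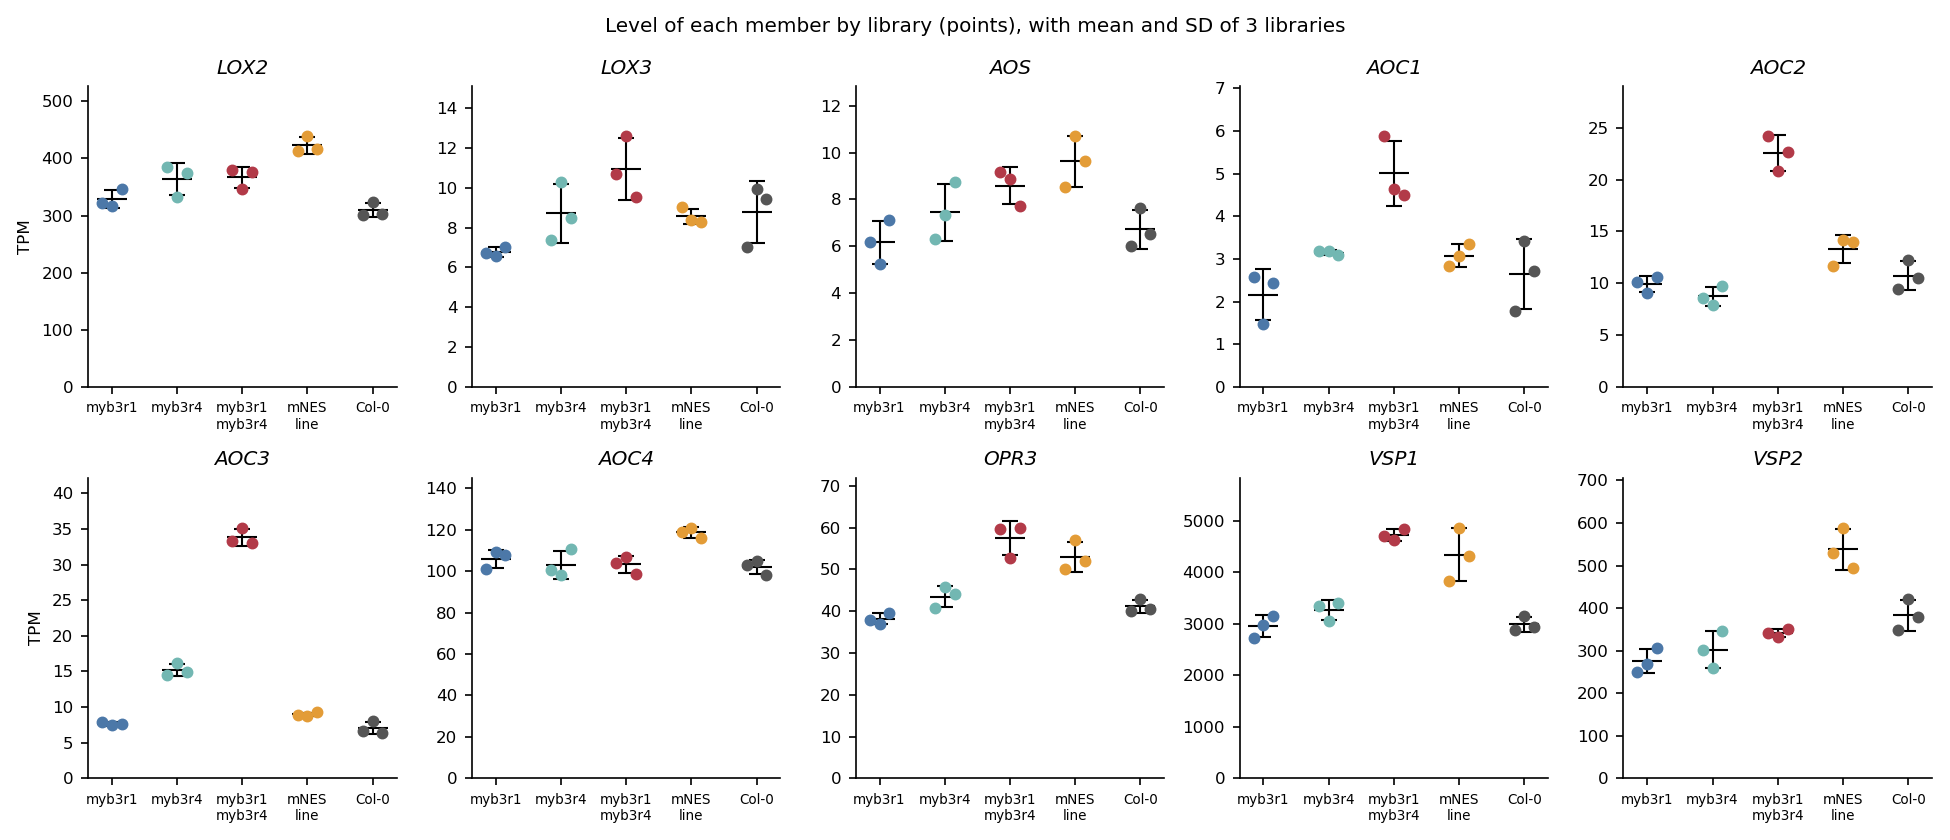
Transcript level in TPM (y axes, linear from 0) of the 10 members in every library, by genotype (x axes); points are libraries, the short bar is the mean and the whiskers are the SD of 3 libraries. AOC3 lies at 33 to 35.2 TPM in the double mutant and 14.5 to 16.2 TPM in myb3r4, against 6.39 to 8.08 TPM in Col-0, while AOC4 stays between 98 and 121 TPM everywhere.

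The first enzymes of the route were the 13-lipoxygenases. LOX2, the main lipoxygenase for jasmonate in wounded leaves, stood at 322, 317 and 346 TPM in myb3r1, 385, 333 and 375 TPM in myb3r4 and 379, 346 and 376 TPM in the double mutant. It reached 413, 439 and 416 TPM in the mNES line, against 301, 323 and 303 TPM in Col-0. Every mNES library lay above every library of the other groups, and the myb3r4 and double mutant libraries lay above Col-0 but overlapped each other. LOX2 rose by 0.45 (SE 0.0563, adjusted p = 0.000227) in the mNES line and by 0.25 (adjusted p = 0.00344) in the double mutant. Its rise of 0.24 in myb3r4 (adjusted p = 0.0237) was lost when Col-0 replicate 1 (0.22, adjusted p = 0.0829) or 3 (0.0679) or myb3r4 replicate 1 (0.0945) or 3 (0.0678) was left out, and in a fit of these 2 groups alone (0.074).

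LOX3, a second 13-lipoxygenase with a known part in flower development, was a low transcript. Its values were 6.75, 6.56 and 7.02 TPM in myb3r1, 7.36, 10.3 and 8.49 TPM in myb3r4 and 10.7, 12.6 and 9.55 TPM in the double mutant. The mNES line had 9.02, 8.39 and 8.28 TPM, against 7.02, 9.92 and 9.42 TPM in Col-0. The groups overlapped Col-0 in every case, and no comparison with Col-0 passed the test. The difference of the double mutant was 0.31 (SE 0.133, adjusted p = 0.0824). Without Col-0 replicate 1, its lowest wild-type value, LOX3 fell by 0.48 in myb3r1 (adjusted p = 0.0419), against a difference of -0.34 with all libraries (adjusted p = 0.163).

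AOS makes the unstable allene oxide that the cyclases use. It measured 6.16, 5.26 and 7.1 TPM in myb3r1, 6.31, 7.32 and 8.74 TPM in myb3r4 and 9.18, 8.88 and 7.71 TPM in the double mutant. The mNES libraries had 8.53, 10.7 and 9.66 TPM, against 6.01, 7.65 and 6.53 TPM in Col-0. Both the double mutant and the mNES line lay wholly above Col-0, by a narrow margin in the double mutant. The rise of 0.49 in the mNES line passed the test (SE 0.133, adjusted p = 0.0233), and the difference of 0.33 in the double mutant did not (adjusted p = 0.0601). The mNES call was lost without Col-0 replicate 1 (0.42, adjusted p = 0.0886) or 3 (0.0704), or without mNES replicate 2 (0.093) or 3 (0.0555). The double mutant passed without Col-0 replicate 2 (0.42, adjusted p = 0.0391), myb3r4 replicate 1 (0.0486) or myb3r4 replicate 3 (0.0453), and in a fit of these groups alone (0.33, adjusted p = 0.0456).

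The allene oxide cyclases fix the stereochemistry of OPDA, and the 4 copies behaved differently. AOC4 was the most abundant and AOC1 the lowest. In Col-0 AOC2 (9.45 to 12.2 TPM) stood above AOC3 (6.39 to 8.08 TPM). AOC3 had 7.96, 7.43 and 7.6 TPM in myb3r1, 14.5, 16.2 and 14.9 TPM in myb3r4 and 33.3, 35.2 and 33 TPM in the double mutant. In the mNES line it had 8.93, 8.82 and 9.27 TPM, against 6.71, 8.08 and 6.39 TPM in Col-0. The double mutant stood above myb3r4, myb3r4 above the mNES line and the mNES line above Col-0, with no overlap between any of these, while myb3r1 overlapped Col-0. In the double mutant AOC3 rose by 2.19 (SE 0.0736, adjusted p = 2.96e-10), with rises of 1.06 in myb3r4 (adjusted p = 1.47e-06) and 0.34 in the mNES line (adjusted p = 0.00715). Only the mNES rise was lost in a fit of the 2 groups alone (adjusted p = 0.0658).

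AOC2, the copy next to it, followed another course. It was at 10.1, 9.06 and 10.6 TPM in myb3r1, 8.62, 7.89 and 9.72 TPM in myb3r4 and 24.2, 20.8 and 22.7 TPM in the double mutant. The mNES line had 11.7, 14.2 and 14 TPM, against 9.45, 12.2 and 10.5 TPM in Col-0. The double mutant was apart from all other libraries, and every other group overlapped Col-0. Its rise in the double mutant was 1.05 (SE 0.106, adjusted p = 8.14e-06), and the difference in myb3r4 was -0.27 (adjusted p = 0.138). The mNES difference of 0.30 missed the threshold (adjusted p = 0.067) and passed it without Col-0 replicate 2 (0.40, adjusted p = 0.0308) or mNES replicate 1 (0.39, adjusted p = 0.0336), and with median-of-ratios scaling (0.34, adjusted p = 0.0488).

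AOC1, the first copy of the tandem, was near the low end of the tested range. It had 2.58, 1.47 and 2.43 TPM in myb3r1, 3.18, 3.18 and 3.09 TPM in myb3r4 and 5.88, 4.64 and 4.5 TPM in the double mutant. The mNES values were 2.83, 3.06 and 3.35 TPM, against 1.78, 3.42 and 2.72 TPM in Col-0. The double mutant was higher by 0.84 (SE 0.196, adjusted p = 0.00397), and there the libraries did not overlap those of any other group, and no other comparison with Col-0 passed.

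AOC4 lies on another chromosome and was the most even member. Its levels were 101, 109 and 108 TPM in myb3r1, 100.5, 98 and 110.5 TPM in myb3r4 and 104, 107 and 98.7 TPM in the double mutant. In the mNES line they were 119, 121 and 116 TPM, against 103, 105 and 98.3 TPM in Col-0. It rose by 0.21 in the mNES line (SE 0.0479, adjusted p = 0.00869), which stood above every other library, and its difference in the double mutant was 0.02 (adjusted p = 0.805).

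Summing AOC1, AOC2 and AOC3 reduces the effect of how reads were split between them. It does not remove it, since TPM is corrected for length and the transcripts have 1191, 1300 and 1660 bases. The double mutant had a rise of 1.58 in the sum (SE 0.0856, adjusted p = 4.55e-08), followed by 0.41 in myb3r4 (adjusted p = 0.012) and 0.32 in the mNES line (adjusted p = 0.0224), with -0.04 in myb3r1 (adjusted p = 0.86). In fits of 2 groups alone the rises in myb3r4 (adjusted p = 0.061) and the mNES line (0.0994) were lost. The mNES rise was also lost without Col-0 replicate 1 (0.23, adjusted p = 0.0922), Col-0 replicate 3 (0.077), mNES replicate 2 (0.0728) or mNES replicate 3 (0.0722).

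The share of each copy in that sum moved too. AOC3 gave 36.8% to 41.4% of it in myb3r1, 53.8% to 59.4% in myb3r4, 52.6% to 58.0% in the double mutant and 33.8% to 38.1% in the mNES line, against 32.6% to 37.4% in Col-0. AOC2 gave 28.9% to 35.0% in myb3r4 and 34.3% to 38.1% in the double mutant, against 51.4% to 53.5% in Col-0. So AOC3 was the leading copy in both genotypes labelled with a myb3r4 mutation, and AOC2 in Col-0. With 3 libraries a group, an exact two-sided permutation test cannot go below p = 0.1, which it reached for AOC3 and AOC2 in myb3r4 and the double mutant. The AOC1 share reached it too in the double mutant, at 7.5% to 9.3% against 9.9% to 14.4% in Col-0. The exact permutation p for the AOC3 share was 0.2 in myb3r1 and 0.6 in the mNES line.

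**Figure D2:**
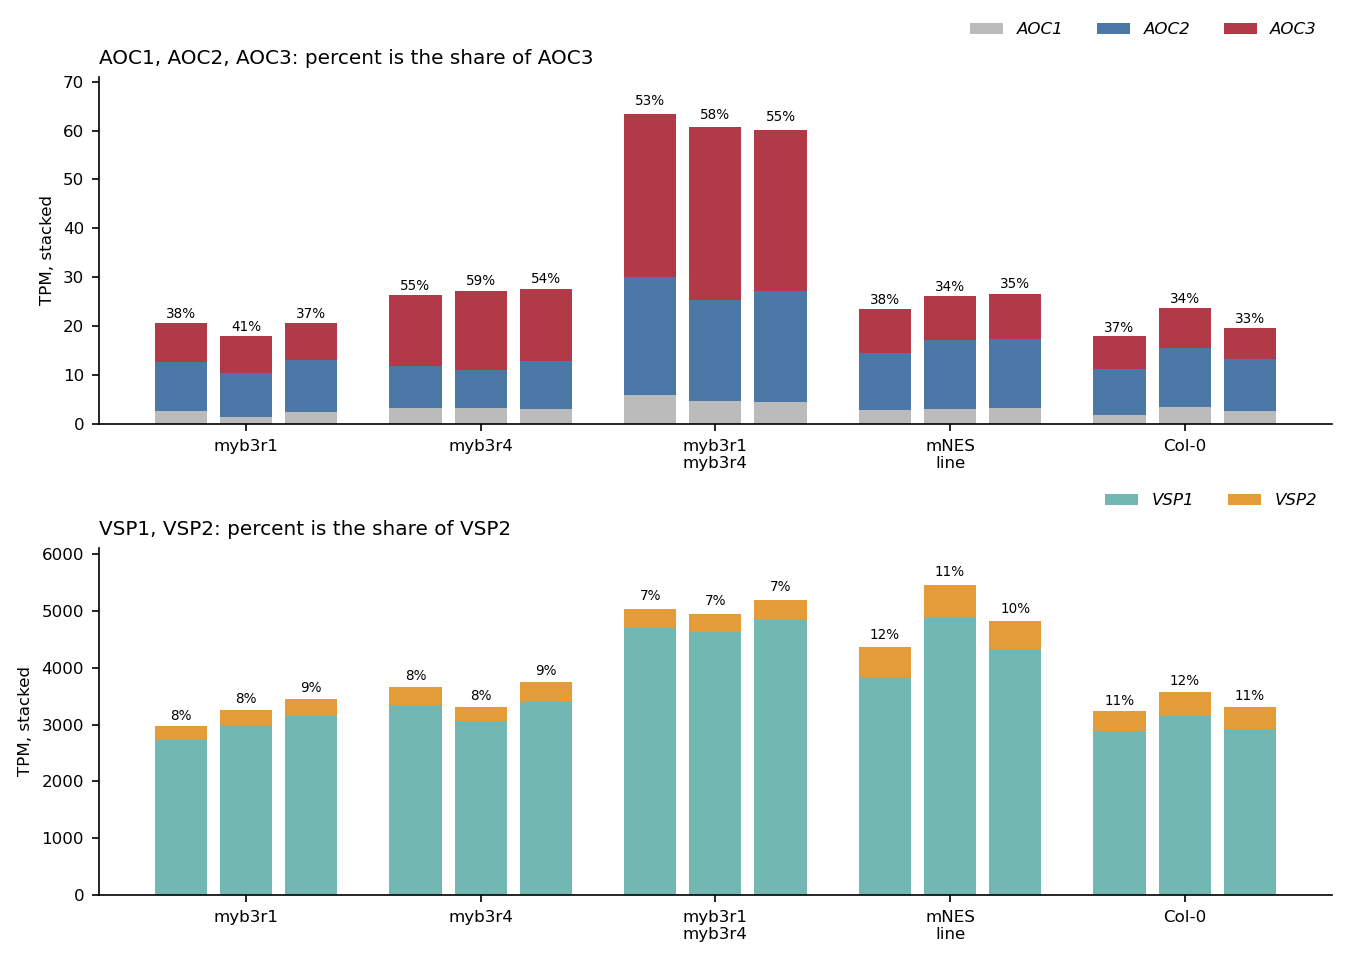
Stacked TPM of the tandem copies AOC1, AOC2 and AOC3 (upper panel) and of VSP1 and VSP2 (lower panel), 1 bar per library grouped by genotype; the number over each bar is the share of AOC3 or of VSP2 in percent. The AOC3 share is above 50% in all myb3r4 and double mutant libraries, and the VSP2 share is lowest in the double mutant, at 6.7% to 6.8%.

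OPR3, the peroxisomal reductase whose loss makes Arabidopsis stamens sterile, measured 38, 37 and 39.6 TPM in myb3r1, 40.8, 45.7 and 44 TPM in myb3r4 and 59.7, 52.7 and 60 TPM in the double mutant. The mNES line had 50.2, 57 and 51.9 TPM, against 40, 42.8 and 40.6 TPM in Col-0. The double mutant and mNES libraries overlapped each other and lay above all others. Its rise was 0.48 in the double mutant (SE 0.0616, adjusted p = 5.23e-05) and 0.36 in the mNES line (adjusted p = 0.00158).

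VSP1 and VSP2 encode acid phosphatase-like storage proteins and lie downstream of the hormone. VSP1 was among the most abundant transcripts of the apex, ranking 6 of 33326 by mean TPM in the double mutant and 11 in Col-0. Its values were 2725, 2988 and 3151 TPM in myb3r1, 3356, 3058 and 3404 TPM in myb3r4 and 4704, 4625 and 4844 TPM in the double mutant. The mNES line had 3838, 4871 and 4329 TPM, against 2888, 3156 and 2932 TPM in Col-0. The double mutant and the mNES line overlapped each other and exceeded every other library. The rise was 0.66 in the double mutant (SE 0.0772, adjusted p = 2.37e-05) and 0.53 in the mNES line (adjusted p = 0.000575). Its differences were -0.02 in myb3r1 (adjusted p = 0.926) and 0.13 in myb3r4 (adjusted p = 0.344).

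VSP2 did not follow VSP1. It had 250.3, 269 and 307 TPM in myb3r1, 302, 259 and 347 TPM in myb3r4 and 341, 332 and 351 TPM in the double mutant. The mNES line had 529, 589 and 495 TPM, against 349.5, 422 and 379 TPM in Col-0. The mNES libraries were above and the single mutants below all Col-0 libraries, and the double mutant overlapped Col-0. VSP2 rose by 0.49 in the mNES line (SE 0.104, adjusted p = 0.00615) and fell by 0.48 in myb3r1 (adjusted p = 0.0156). The fall in myb3r1 was lost without Col-0 replicate 2 (-0.41, adjusted p = 0.0758), myb3r1 replicate 1 (0.0696) or myb3r1 replicate 2 (0.0545). The difference was -0.35 in myb3r4 (adjusted p = 0.0592), which passed without myb3r4 replicate 3 (-0.45, adjusted p = 0.0221), and -0.16 in the double mutant (adjusted p = 0.225).

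As a share of the VSP pair, VSP2 made up 8.3% to 8.9% in myb3r1, 7.8% to 9.2% in myb3r4, 6.7% to 6.8% in the double mutant and 10.3% to 12.1% in the mNES line, against 10.8% to 11.8% in Col-0. All 3 mutants lay below Col-0 with no overlap, at the smallest exact permutation p of 0.1, and the mNES line overlapped it (exact permutation p = 0.7). With the pair summed, the double mutant was higher by 0.59 (SE 0.0773, adjusted p = 5.96e-05) and the mNES line by 0.53 (adjusted p = 0.000613).

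**Figure D3:**
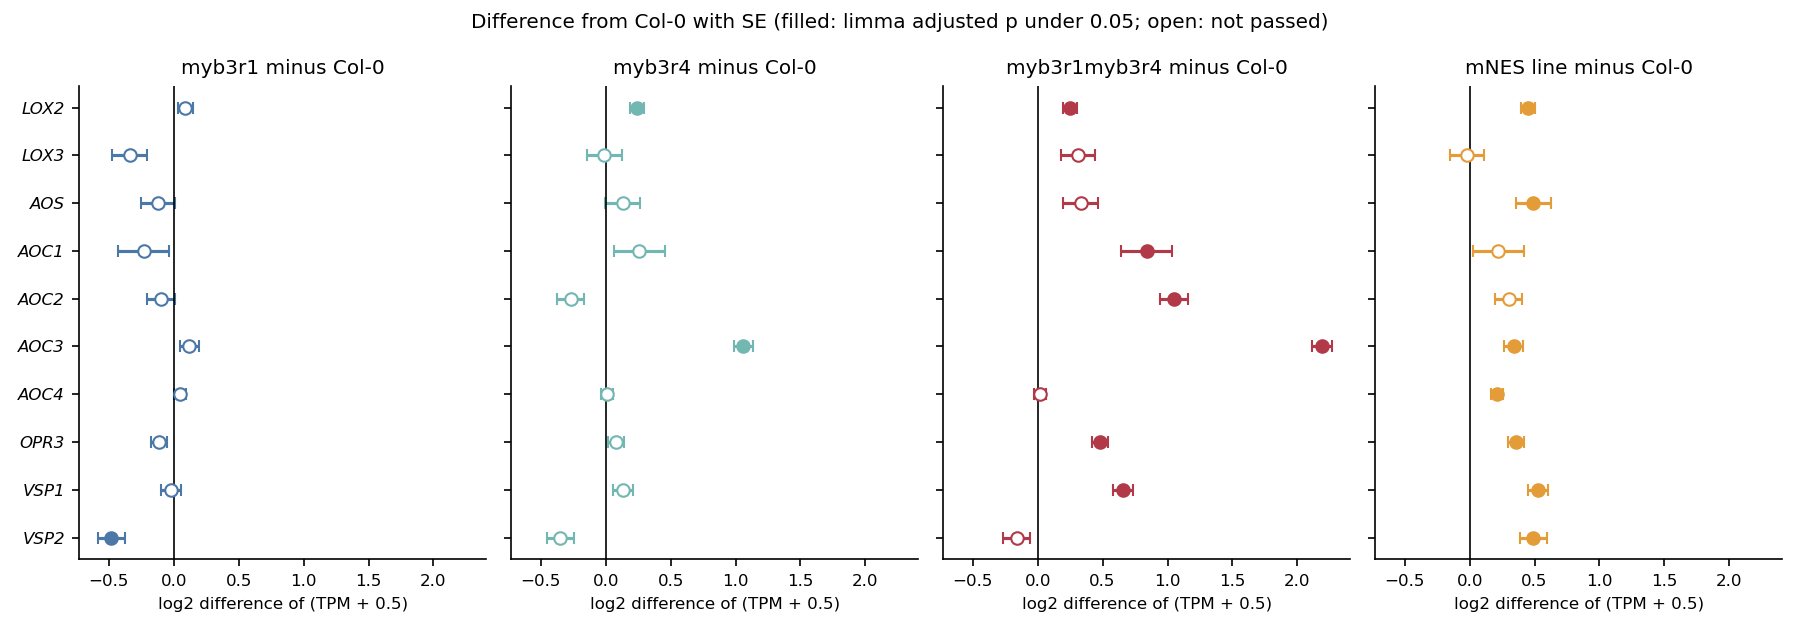
Difference from Col-0 of each member (x axes, log2 difference of TPM + 0.5, with SE) in the 4 comparisons; filled points passed the limma test at an adjusted p under 0.05 and open points did not. In the double mutant AOC3 stands out at 2.19 and VSP2 lies at -0.16, whereas in the mNES line the 7 filled points lie between 0.21 and 0.53.

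Counted together, 6 members rose and none fell in the double mutant, where 24.5% of all genes tested rose and 17.1% fell. The median member differed by 0.40 from Col-0, and the median of all genes by 0.05. In the mNES line 7 rose and none fell, where 7.6% of all genes rose and 9.39% fell, with a median of 0.35 over the members and -0.03 over all genes. In myb3r4, 2 members rose and none fell, beside 4.55% and 3.04% of all genes, and leaving out one library gave 1 or 2. In myb3r1 none rose and 1 fell, beside 3.16% and 3.1% of all genes, and leaving out one library gave from 0 to 2. With median-of-ratios scaling, 45.2% of all calls in the double mutant were rises (58.9% as reported), and 59.2% in the mNES line (44.7% as reported).

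Adding the second mutation was then tested directly. Relative to myb3r1, 9 members were higher in the double mutant, beside 17.2% of all genes, with AOC4 the exception (-0.04, adjusted p = 0.605). The differences ran from 0.16 for LOX2 (adjusted p = 0.047) and 0.31 for VSP2 (adjusted p = 0.0357) to 1.14 for AOC2 and 2.07 for AOC3 (adjusted p = 6.55e-10). The LOX2 and VSP2 calls were lost under several alternatives: with no filter (adjusted p = 0.0675 and 0.0558), with median-of-ratios scaling (0.142 and 0.0695), and without myb3r1 replicate 1 (0.118 and 0.127). Without Col-0 replicate 1, LOX2 had 0.16 (adjusted p = 0.054). Leaving out any of 10 libraries ended the LOX2 call and any of 5 the VSP2 call, and the AOS call (0.45, adjusted p = 0.0209) was lost without myb3r1 replicate 2 (0.0951), double mutant replicate 1 (0.0721) or double mutant replicate 2 (0.0593). Leaving out one library left between 6 and 9 calls. Of all called genes, 43.7% were rises with median-of-ratios scaling and 57.1% as reported.

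Relative to myb3r4, 5 members were higher in the double mutant, beside 20.1% of all genes. These were AOC2 (1.32, adjusted p = 4.03e-06), AOC3 (1.13, adjusted p = 9.91e-07), AOC1 (0.58, adjusted p = 0.0344), VSP1 (0.53, adjusted p = 0.000271) and OPR3 (0.40, adjusted p = 0.00041). LOX2 differed by 0.01 (adjusted p = 0.899), and LOX3 by 0.32 (adjusted p = 0.083). LOX3 passed without Col-0 replicate 1 (0.32, adjusted p = 0.0446) or myb3r4 replicate 2 (0.43, adjusted p = 0.0297). The AOC1 call was lost when any library of either group was left out, with adjusted p from 0.0515 without double mutant replicate 3 to 0.124 without double mutant replicate 1. Of all called genes, 44.1% were rises with median-of-ratios scaling and 57.9% as reported.

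The interaction contrast asks whether the double mutant exceeds the sum of the single mutant differences on the log2 scale. It was positive and past the threshold for 6 members, beside 6.31% of all genes. AOC2 had the largest value, 1.42 (SE 0.15, adjusted p = 7.99e-05), with both single mutants overlapping Col-0. AOC3 had 1.01 (SE 0.104, adjusted p = 6.73e-05), VSP2 0.66 (adjusted p = 0.0109), LOX3 0.65 (adjusted p = 0.0386), VSP1 0.55 (adjusted p = 0.00601) and OPR3 0.50 (adjusted p = 0.00275). The VSP2 value rests on single mutants that were below Col-0 and a double mutant that overlapped it. The LOX3 call was lost when any of 10 libraries was left out, with an adjusted p of 0.0859 without Col-0 replicate 2. It was also lost with no filter (0.0598), with median-of-ratios scaling (0.0501), with no variance trend (0.05) and in a fit of the groups compared alone (0.0547). LOX2 had -0.08 (adjusted p = 0.57), AOS 0.32 (adjusted p = 0.289), AOC4 -0.05 (adjusted p = 0.693) and AOC1 0.82 (adjusted p = 0.0738), which passed without Col-0 replicate 1 (1.03, adjusted p = 0.0215). With median-of-ratios scaling 40.4% of all calls were positive, against 51.4% as reported.

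The mNES line was also set against myb3r4, since both concern the same gene. There 6 members were higher and AOC3 was lower, beside 11.6% of all genes higher and 17.9% lower. AOC3 fell by 0.72 (adjusted p = 1.43e-05). VSP2 rose by 0.84 (adjusted p = 6.72e-05), AOC2 by 0.58 (adjusted p = 0.00125), VSP1 by 0.40 (adjusted p = 0.00165), OPR3 by 0.28 (adjusted p = 0.00393), LOX2 by 0.22 (adjusted p = 0.0114) and AOC4 by 0.20 (adjusted p = 0.00655). The LOX2 call was lost without myb3r4 replicate 2 (0.15, adjusted p = 0.0509). AOS differed by 0.35 (adjusted p = 0.0612), and passed with median-of-ratios scaling (0.39, adjusted p = 0.0426), with upper-quartile scaling (0.39, adjusted p = 0.0433), and without myb3r4 replicate 3 (0.47, adjusted p = 0.0241) or mNES replicate 1 (0.43, adjusted p = 0.0475). AOC3 and AOC2 thus differed in opposite directions, and their sum with AOC1 differed by -0.10 (adjusted p = 0.438). Of all called genes, 53.8% were rises with median-of-ratios scaling and 39.4% as reported.

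Over the 15 libraries, the members did not vary as one block. Pearson's r of log2(TPM + 0.5), given as a description over libraries that share groups, was highest for OPR3 and VSP1 at 0.95, and was 0.85 for AOC2 and VSP1. AOC3 had r of -0.17 with VSP2 and -0.23 with AOC4. AOC4 and VSP2, which both were highest in the mNES line, had r of 0.72. The genes most like LOX2 outside the set were CORI3 (r = 0.917), AT4G30460 (0.904), ELIP1 (0.893), ABCC2 (0.893) and AT5G50460 (0.886). For AOS they were JAZ5 (0.925), AT3G14067 (0.881), BAM5 (0.877), RGP2 (0.865) and AT4G16146 (0.849). For VSP2 they were ILL6 (0.962), SKIP1 (0.935), AT5G02940 (0.932), APS3 (0.931) and SDH1-1 (0.925).

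Of 62 other genes of the pathway, 53 were tested. The double mutant had 18 rises and 14 falls among them, or 34.0% and 26.4%, beside 24.5% and 17.1% of all genes. The mNES line had 16 rises and 4 falls, or 30.2% and 7.5%, beside 7.6% and 9.39% of all genes. There were 3 rises (5.7%) and no falls in myb3r4, beside 4.55% and 3.04% of all genes, and no rises and 9 falls (17.0%) in myb3r1, beside 3.16% and 3.1%. Of the 53 genes, 3 met the filter of at least 1 TPM in 3 libraries only with the mNES libraries counted. Without these genes there were 18 rises and 13 falls in the double mutant and 14 rises and 4 falls in the mNES line. Some of these counts rest on single libraries. The 9 falls in myb3r1 became 3 when Col-0 replicate 2 was left out, 5 when Col-0 replicate 3 was, 4 when myb3r1 replicate 2 was and 5 when myb3r1 replicate 3 was. The 16 rises in the mNES line became 8 without Col-0 replicate 1, Col-0 replicate 3, mNES replicate 1 or mNES replicate 2. The 4 falls in the mNES line became 2 without Col-0 replicate 2 or 3 or any of the mNES libraries, and 1 in a fit of these groups alone. In myb3r4, without replicate 3, 5 fell, and without Col-0 replicate 1, 1 rose.

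**Figure D4:**
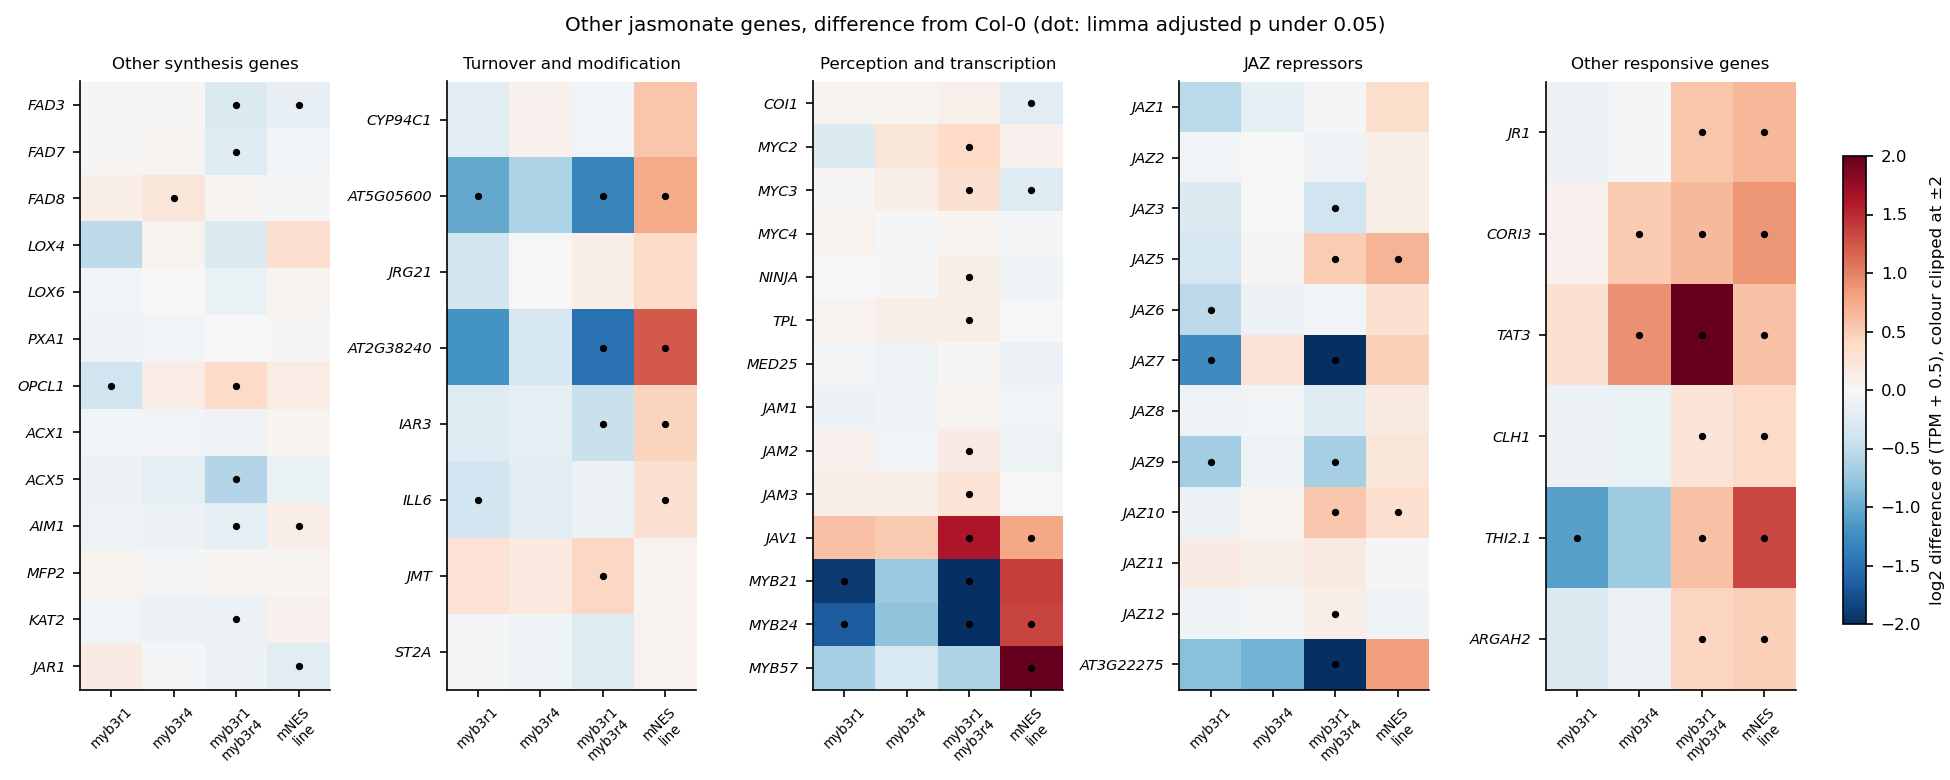
Log2 difference of TPM + 0.5 from Col-0 (colour, clipped at 2 either way) for the other jasmonate genes tested, in 5 panels by role, with the 4 genotypes in columns; dots mark an adjusted p under 0.05 in limma. All 6 tested responsive genes carry a rise in the double mutant and in the mNES line, while AT5G05600 and IAR3 fell in the first and rose in the second.

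Of 13 tested genes for other steps of synthesis, 1 rose and 5 fell in the double mutant (7.7% and 38.5%, beside 24.5% and 17.1% of all genes), and 1 rose and 2 fell in the mNES line (7.7% and 15.4%, beside 7.6% and 9.39%). The list medians were -0.12 and 0.04. OPCL1, which activates the OPR3 product for beta-oxidation, was at 20.9 to 24.2 TPM in the double mutant, against 14.5 to 19 TPM in Col-0, a rise of 0.39 (adjusted p = 0.00356), and it fell by 0.40 in myb3r1 (adjusted p = 0.0192). The acyl-CoA oxidase ACX5 fell by 0.59 in the double mutant (adjusted p = 0.000298), and the desaturases FAD3 and FAD7, which make linolenic acid, fell by 0.29 and 0.26 (adjusted p = 0.000453 and 0.000302). In the mNES line AIM1, of beta-oxidation, rose by 0.14 (adjusted p = 0.044), and FAD3 and JAR1, the enzyme that conjugates jasmonate to isoleucine, fell by 0.16 and 0.21 (adjusted p = 0.0376 and 0.0269). In myb3r4 the desaturase FAD8 rose by 0.24 (adjusted p = 0.0265). The lipases DAD1, known to start jasmonate synthesis in stamens, and DGL did not pass the filter, with at most 0.155 TPM in any library for DAD1 and DGL listed at 0. Among 5 related oxylipin genes, OPR1 rose by 0.26 (adjusted p = 0.0316) in the double mutant and by 0.73 (adjusted p = 0.000191) in the mNES line, where LOX1 and LOX5, 9-lipoxygenases, rose by 0.63 and 0.33 (adjusted p = 0.000538 and 0.0266).

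Among 8 tested genes for turnover and modification, 1 rose and 3 fell in the double mutant (12.5% and 37.5%, beside 24.5% and 17.1% of all genes). Rises numbered 4 in the mNES line, with no falls (50.0%, beside 7.6% of all genes). The list medians were -0.18 and 0.41, and AT5G05600 and IAR3 were called in both lines with opposite signs. CYP94C1 and AT2G38240 met the filter only with the mNES libraries counted, and CYP94C1 needed a myb3r4 library too. Among the other 6 genes 1 rose and 2 fell in the double mutant and 3 rose in the mNES line. AT5G05600, annotated as an oxygenase of the 2-oxoglutarate and Fe(II)-dependent superfamily, was at 4.03 to 7.04 TPM in the double mutant, 18.3 to 27.5 TPM in the mNES line and 6.48 to 6.7 TPM in myb3r1, against 12.4 to 16.1 TPM in Col-0. It fell by 1.32 in the double mutant (adjusted p = 0.00032) and by 1.03 in myb3r1 (adjusted p = 0.0136), and rose by 0.74 in the mNES line (adjusted p = 0.0332). AT2G38240, of the same superfamily, was at 0 to 0.0628 TPM in the double mutant and 1.7 to 4.51 TPM in the mNES line, against 0.57 to 1.65 TPM in Col-0. It met the filter only through the mNES line, so its differences of -1.49 and 1.22 are a description. The amidohydrolase IAR3 fell by 0.44 in the double mutant (adjusted p = 0.00138) and rose by 0.45 in the mNES line (adjusted p = 0.00354). ILL6, a related amidohydrolase, fell by 0.38 in myb3r1 (adjusted p = 0.0127), and the methyltransferase gene JMT rose by 0.42 in the double mutant (adjusted p = 0.002). No gene of this list passed in myb3r4.

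Of 14 genes for perception and transcription, 7 rose and 2 fell in the double mutant (50.0% and 14.3%, beside 24.5% and 17.1% of all genes), and 3 rose and 2 fell in the mNES line (21.4% and 14.3%, beside 7.6% and 9.39%). In myb3r1 none rose and 2 fell (14.3%, beside 3.1%). MYC2, the main activator of the response, rose by 0.40 (adjusted p = 0.0115) and MYC3 by 0.31 (adjusted p = 0.000168) in the double mutant. In the mNES line MYC3 fell by 0.26 (adjusted p = 0.0022) and the receptor gene COI1 by 0.21 (adjusted p = 0.0171). JAV1, a repressor of jasmonate defence, rose by 1.62 in the double mutant (adjusted p = 0.000201) and by 0.78 in the mNES line (adjusted p = 0.0471). The stamen factors MYB21 and MYB24 fell by 4.01 and 2.94 in the double mutant (adjusted p = 6.02e-05 and 0.000118) and differed by -1.92 and -1.66 in myb3r1, where they passed too (adjusted p = 0.049 and 0.0345). MYB21 was at 0 to 2.15 TPM in the double mutant and 26.1 to 50.2 TPM in the mNES line, against 11.1 to 17 TPM in Col-0, and its difference of 1.39 in the mNES line did not pass (adjusted p = 0.0902). MYB24 rose by 1.35 in the mNES line (adjusted p = 0.0434). MYB57, a related stamen factor, was at 2.52 to 5.97 TPM in the mNES line, against 0.27 to 0.336 TPM in Col-0, and met the filter through the mNES libraries alone, so its difference of 2.32 is a description. Without it, 2 genes of the list rose in the mNES line.

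Of 12 tested JAZ repressor genes, 3 rose and 4 fell in the double mutant (25.0% and 33.3%, beside 24.5% and 17.1% of all genes). In the mNES line 2 rose and none fell (16.7%, beside 7.6%), and in myb3r1 none rose and 3 fell (25.0%, beside 3.1%). The list medians were -0.07 in the double mutant and 0.27 in the mNES line. JAZ5 and JAZ10 rose in the double mutant (0.50 and 0.54, adjusted p = 0.0089 and 0.000588) and in the mNES line (0.68 and 0.34, adjusted p = 0.00423 and 0.0295). In the double mutant JAZ12 rose by 0.14 (adjusted p = 0.00649), AT3G22275, annotated as a jasmonate ZIM-domain protein, fell by 3.29 (adjusted p = 5.67e-05), JAZ7 by 2.01 (adjusted p = 0.000438) and JAZ9 by 0.67 (adjusted p = 0.00105). In myb3r1 JAZ7, JAZ9 and JAZ6 fell by 1.26, 0.69 and 0.52 (adjusted p = 0.0469, 0.00642 and 0.00729).

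Of 9 listed genes that respond to jasmonate other than the VSPs, 6 were tested. ORA59, ERF1 and PDF1.2A did not pass the filter, with at most 0.452, 0.276 and 0.388 TPM in any library. All 6 tested genes rose in the double mutant and in the mNES line. In myb3r4 2 rose (33.3%, beside 4.55% of all genes), and in myb3r1 1 fell (16.7%, beside 3.1%). The list medians were 0.57 in the double mutant and 0.62 in the mNES line, where 24.5% and 7.6% of all genes rose. The aminotransferase gene TAT3 was at 16.7 to 20.4 TPM in the double mutant and 3.8 to 5.31 TPM in myb3r4, against 1.71 to 2.5 TPM in Col-0, rises of 2.91 (adjusted p = 1.93e-07) and 0.91 (adjusted p = 0.0119). CORI3, which encodes a cystine lyase, rose by 0.65 in the double mutant, 0.53 in myb3r4 and 0.89 in the mNES line (adjusted p = 0.000452, 0.0122 and 0.000234). The thionin gene THI2.1 fell by 1.09 in myb3r1 (adjusted p = 0.00677), and rose by 0.58 in the double mutant (adjusted p = 0.0356) and by 1.34 in the mNES line (adjusted p = 0.000765). The lectin gene JR1 rose by 0.66 in the mNES line (adjusted p = 6.37e-05).

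Rapid wound and touch genes and markers of other tissues also differed between the genotypes. The 11 rapid wound and touch genes summed to 112 to 136 TPM in myb3r1, 228 to 239.5 TPM in myb3r4, 252 to 365 TPM in the double mutant and 87.6 to 92.9 TPM in the mNES line, against 72.7 to 163 TPM in Col-0. Of them 6 rose in the double mutant (54.5%, beside 24.5% of all genes) and 3 in myb3r4 (27.3%, beside 4.55%). None rose and 1 fell in the mNES line (9.1%, beside 9.39% of all genes).

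The 11 anther and tapetum genes summed to 1353 to 1598 TPM in the double mutant and 392 to 654 TPM in the mNES line, against 769 to 918 TPM in Col-0, with 9 rises in the double mutant (81.8%, beside 24.5% of all genes) and 8 falls in the mNES line (72.7%, beside 9.39%). Of 3 genes of stamens and petals, 2 rose and 1 fell in the double mutant (66.7% and 33.3%, beside 24.5% and 17.1% of all genes). AP3 and PI rose by 0.30 (adjusted p = 0.00032) and 0.26 (adjusted p = 0.000175), and MYB108 fell by 1.15 (adjusted p = 0.0011). MYB108 rose by 1.19 in the mNES line (adjusted p = 0.00298), where AP3 and PI had -0.12 and -0.07 (adjusted p = 0.107 and 0.286). It fell by 0.99 in myb3r1 (adjusted p = 0.018). Each of these calls was 33.3% of the list, beside 7.6% of all genes higher in the mNES line and 3.1% lower in myb3r1. The 7 photosynthesis genes summed to 10659 to 11515 TPM in the double mutant and 12829.7 to 13744 TPM in the mNES line, against 15068 to 15860.3 TPM in Col-0, with all 7 lower in the double mutant, beside 17.1% of all genes. In each of the other groups 4 were lower (57.1%), beside 3.1% of all genes in myb3r1, 3.04% in myb3r4 and 9.39% in the mNES line. LOX2 and VSP1 are known as leaf genes. Of 6 meristem and floral markers, 5 were tested. In the double mutant LFY rose and WUS fell (20.0% each, beside 24.5% and 17.1% of all genes). In the mNES line only LFY was called, as a fall (20.0%, beside 9.39%). In myb3r4 only STM was called, as a rise (20.0%, beside 4.55%), and in myb3r1 none was called. The part of tissue composition and of wounding in the members' values was not tested.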

How the data were processed

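Total RNA from pools of 36 meristems was enriched for poly(A) transcripts and sequenced on Illumina instruments, per the labels' protocols. The values deposited by the authors are TPM per gene. FastQC, Salmon and TAIR10 were used, per the submitters' processing notes, without versions, and how transcripts were combined into genes is not given in the sources used here. TPM sums to the same total in each library, so a change in very abundant genes shifts all others, and read depth is unknown.

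From these values, log2(TPM + 0.5) of 21737 genes with at least 1 TPM in at least 3 libraries was fitted with limma 3.58.1 in R 4.3.3, with 5 group means, variances moderated along a trend and 10 residual degrees of freedom. The added 0.5 understates changes of low genes. The 8 contrasts were tested two-sided, and Benjamini-Hochberg adjustment covered every tested gene of a contrast, with a threshold of 0.05. The same fit was repeated with the tandem copies summed, AOC1 with AOC2 and AOC3, and VSP1 with VSP2. The code was tested on simulated data. Shares of copies were compared with exact permutation tests.

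All 10 members were named, and from lists of other jasmonate genes up to 3 called genes with the largest change in each direction per list and comparison. The values of the markers WUS, STM, LFY, AP3, PI and MYB108 were added after they had been seen. Genes of like pattern were the 5 with the highest Pearson's r among genes with a mean of at least 5 TPM. Members and lists were chosen with earlier results of these data known. The alternatives were other pseudocounts, filters, scalings, sample sets and variance priors, a replicate block, and leaving out each library. Sequences came from the RefSeq TAIR10.1 genome. Pairwise coding identity was counted over bases aligned end to end.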

Additional observations from a re-analysis of the deposited data

Results flagged for a closer look

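The effect of myb3r4 in the myb3r1 background differed from its effect in the Col-0 background for 6 members, by the limma interaction test with Benjamini-Hochberg adjustment over all genes tested. The difference between the effects on the log2 scale was 1.42 for AOC2, 1.01 for AOC3, 0.66 for VSP2, 0.65 for LOX3, 0.55 for VSP1 and 0.50 for OPR3. The adjusted p ranged from 6.73e-05 for AOC3 to 0.0386 for LOX3. In each case the effect was higher in the myb3r1 background. The LOX3 value did not pass with no filter (adjusted p = 0.0598), with median-of-ratios scaling (0.0501), with no variance trend (0.05) or in a fit of the groups compared alone (0.0547), nor when any of 10 libraries was left out.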

How the results depend on the processing

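Besides leaving out each library, 9 alternatives were run for the contrasts. The number of members called stayed between 5 and 7 for the double mutant against Col-0 and between 6 and 8 for the mNES line against Col-0. In myb3r4 against Col-0, 1 member was called in place of 2 in a fit of only the groups compared. With each library left out, the counts ranged from 0 to 2 in myb3r1 and from 1 to 2 in myb3r4. The cause of these changes was not tested. Fits of only the groups compared and fits without a library also had fewer samples. With a filter of 5 TPM, AOC1 was not tested. No value past the threshold changed sign in any alternative.

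Values near 0 that had not passed the test changed sign. With median-of-ratios scaling LOX2 in the double mutant against myb3r4 became -0.03, LOX3 in the mNES line 0.01 against Col-0 and 0.03 against myb3r4, AOC1 in the mNES line against myb3r4 0.005, and AOC4 in the double mutant -0.04 against both Col-0 and myb3r4. With upper-quartile scaling these values were -0.004, 0.0002, 0.03, 0.003, -0.01 and -0.01, and AOC4 in myb3r4 against Col-0 became -0.01. With each library left out, LOX2 in the double mutant against myb3r4 ranged from -0.05 to 0.05. LOX3 ranged from -0.15 to 0.10 in myb3r4 and from -0.17 to 0.07 in the mNES line against Col-0, and from -0.12 to 0.11 in the mNES line against myb3r4. AOC1 in the mNES line against myb3r4 ranged from -0.09 to 0.02. AOC4 ranged from -0.04 to 0.05 in myb3r4 and from -0.01 to 0.05 in the double mutant against Col-0, from -0.03 to 0.06 in the double mutant against myb3r4, and from -0.08 to 0.005 in the interaction. VSP1 in myb3r1 against Col-0 ranged from -0.07 to 0.04, and the AOC sum there from -0.12 to 0.07.

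Deviations of same-numbered libraries from their group means had r from -0.125 to 0.088 over 30 pairs, against -0.15 to 0.132 over 60 other pairs. These values do not settle whether the replicate numbers pair the samples, since an effect shared by few genes would hardly move r over all genes. With the replicate number as a block, 6 members were called in the double mutant and 7 in the mNES line against Col-0, as without it. The block ended 2 calls, LOX2 in the double mutant against myb3r1 (adjusted p = 0.0599) and AOC1 in the double mutant against myb3r4 (0.0539), which left 8 and 4. Depth is unknown, and the number of libraries a group, 3, limits the precision.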
